A study of Mus musculus with 12 samples.

Results

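A set of 4039 regions of mouse myeloid progenitor chromatin was more accessible after a combination of 3 drugs than after vehicle, yet had no counterpart among the regions that the LSD1 inhibitor changed by itself. The regions were selected on 2 deposited comparisons. Each is a row of the Combo against Vehicle table in which the Combo level exceeds the Vehicle level, and none shares a single base with any row of the LSD1i against Vehicle table. They make up 59.3% of the 6813 gained rows among the 7955 rows of the Combo table, in a series whose called peaks join into 73173 regions. They are called unlisted regions below, and the other 2774 gained rows, which do overlap an LSD1i row, are called listed regions. "Unlisted" describes the LSD1i table only. At 91.9% of the unlisted regions measured in all Combo, LSD1i and Vehicle libraries, the mean signal under the LSD1 inhibitor lay above that under vehicle, as it did at 45.4% of all regions measured there. The selection used these groups, so the share is a description.

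The cells were granulocyte-monocyte progenitors from C57BL6 mouse bone marrow that carry ER-HOXA9, in which the homeobox protein HOXA9 is joined to estrogen receptor, and all groups share this fusion. Culture with beta-estradiol keeps the fusion active, and stem cell factor was supplied as growth factor. Day0 was sampled before treatment. The other 5 groups were sampled on day 2: Vehicle received DMSO, LSD1i 200 nM GSK-LSD1, 6MP 5 uM mercaptopurine, CER 5 uM cerulenin, and Combo all 3 drugs at those doses. Each group has 2 biological replicates, and whether a replicate is a separate mouse or a separate culture of one line is not given in the sources used here. The libraries hold 42651 to 56398 called peaks with a median summit pileup of 50 to 75 fragments. Enrichment of the summits over background at shared regions was lowest in 6MP replicate 1 (16.9 times) and CER replicate 2 (23 times), and lay between 28.3 and 42.7 times in the others. Promoters of 13 of 17 progenitor genes held a called peak in all 12 libraries, among them those of Kit, Myb, Cd34 and Meis1. Those of Hoxa7, Hoxa9 and Mecom held a peak in no library. Of 22 myeloid transcription factor promoters, 21 held a peak in all 12 libraries, among them those of Cebpa and Runx1. So did 2 of 15 lymphoid, 5 of 10 megakaryocyte and erythroid, and 4 of 15 monocyte and macrophage promoters. The same held for 3 of 9 mast cell and 2 of 7 dendritic cell promoters. Of 21 neutrophil promoters, 8 held a peak in all 12 libraries, among them those of Mpo, Camp and Ctsg, and 10 in none, among them those of Elane and Prtn3.

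ATAC-seq reads out open chromatin as the places where a transposase can insert sequencing adapters, and most open sites away from promoters are enhancers. LSD1, encoded by Kdm1a, removes methyl groups from lysine 4 of histone H3. In myeloid progenitors it works with CoREST and is brought to enhancers by GFI1 and GFI1B, repressors that hold back monocytic genes, so its inhibitors are known to open enhancers occupied by PU.1 and C/EBP factors. Mercaptopurine is a purine analogue that interferes with nucleotide synthesis, and cerulenin inhibits fatty acid synthase.

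In 137 of the unlisted regions the whole promoter window of at least 1 gene lies inside the region, which lets the regulatory sequence be shown next to its accessibility. The 250 bases upstream of the start site are given for 8 such genes, from RefSeq on GRCm38.p6, 5′ to 3′ on the gene's strand. Sqor, which encodes a mitochondrial sulfide oxidase, and Camp, which encodes the cathelicidin peptide of neutrophil granules, lie in the regions with the lowest FDR among those called in all 12 libraries. Ifi211, an interferon-inducible gene, and Cstdc3 lie in regions with no Vehicle peak, the adhesion receptor gene Adgre4 and the inflammasome gene Naip1 in regions called in the Combo libraries alone, and the Fc receptor gene Fcgr4 and the lipid receptor gene Trem2 belong to the monocyte and macrophage genes. Capitals mark a match to a myeloid motif.
Sqor, chr2:122771463-122771712, + strand: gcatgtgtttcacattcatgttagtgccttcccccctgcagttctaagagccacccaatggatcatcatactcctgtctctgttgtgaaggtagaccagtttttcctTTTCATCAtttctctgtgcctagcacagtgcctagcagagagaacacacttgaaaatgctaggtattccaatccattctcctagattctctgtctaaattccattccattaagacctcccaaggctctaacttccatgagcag
Camp, chr9:109849457-109849706, - strand: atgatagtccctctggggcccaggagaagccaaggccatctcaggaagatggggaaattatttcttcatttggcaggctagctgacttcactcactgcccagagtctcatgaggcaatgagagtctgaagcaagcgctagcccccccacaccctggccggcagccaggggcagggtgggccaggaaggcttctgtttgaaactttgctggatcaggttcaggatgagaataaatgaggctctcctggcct
Ifi211, chr1:173913047-173913296, - strand: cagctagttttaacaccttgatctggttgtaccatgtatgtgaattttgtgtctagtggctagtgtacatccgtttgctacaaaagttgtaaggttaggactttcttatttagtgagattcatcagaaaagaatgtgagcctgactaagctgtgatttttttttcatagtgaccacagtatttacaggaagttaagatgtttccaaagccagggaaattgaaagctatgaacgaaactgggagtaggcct
Cstdc3, chr16:36307770-36308019, + strand: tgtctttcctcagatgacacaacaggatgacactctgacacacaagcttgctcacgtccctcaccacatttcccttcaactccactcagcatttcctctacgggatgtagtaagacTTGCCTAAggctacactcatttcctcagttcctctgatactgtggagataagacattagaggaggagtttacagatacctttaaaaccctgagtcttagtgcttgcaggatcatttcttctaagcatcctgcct
Adgre4, chr17:55749734-55749983, + strand: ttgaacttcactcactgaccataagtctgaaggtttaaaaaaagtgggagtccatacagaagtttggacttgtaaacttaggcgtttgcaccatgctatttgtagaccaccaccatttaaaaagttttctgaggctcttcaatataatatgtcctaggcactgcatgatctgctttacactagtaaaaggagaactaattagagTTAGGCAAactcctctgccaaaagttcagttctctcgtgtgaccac
Naip1, chr13:100452865-100453114, - strand: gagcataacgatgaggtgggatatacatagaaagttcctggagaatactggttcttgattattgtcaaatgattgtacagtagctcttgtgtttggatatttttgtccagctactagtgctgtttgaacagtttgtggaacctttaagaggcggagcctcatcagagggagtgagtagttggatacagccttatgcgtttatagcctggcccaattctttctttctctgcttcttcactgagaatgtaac
Fcgr4, chr1:171018676-171018925, + strand: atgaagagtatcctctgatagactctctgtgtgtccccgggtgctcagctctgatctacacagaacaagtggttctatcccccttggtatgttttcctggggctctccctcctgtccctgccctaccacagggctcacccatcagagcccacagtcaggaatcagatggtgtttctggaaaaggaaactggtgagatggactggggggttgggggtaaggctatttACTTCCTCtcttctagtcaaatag
Trem2, chr17:48346151-48346400, + strand: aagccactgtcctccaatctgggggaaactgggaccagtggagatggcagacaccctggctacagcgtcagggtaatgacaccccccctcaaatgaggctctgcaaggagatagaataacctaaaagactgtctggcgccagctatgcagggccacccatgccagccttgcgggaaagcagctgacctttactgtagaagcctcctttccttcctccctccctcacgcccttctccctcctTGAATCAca
The capitals in Sqor match the composite C/EBP-ATF motif, beginning 143 bases before the start site. Those in Cstdc3 and Adgre4 match C/EBP, 134 and 46 bases before it, those in Fcgr4 match PU.1 on the other strand, 24 bases before it, and those in Trem2 match AP-1, 9 bases before it. In Camp, Ifi211 and Naip1 none of the motifs marked here (C/EBP, C/EBP-ATF, PU.1, ETS core, AP-1 and RUNX) was found in these bases. A match of letters is a description and says nothing of binding.

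The pileups at these promoters show 2 forms of gain that recur throughout the set. In the Sqor region the summit held 58 and 38 fragments at Day0, 56 and 58 in Vehicle, 63 and 70 in LSD1i, 23 and 73 in 6MP, 75 and 54 in CER, and 143 and 127 in Combo. It was open in every library and highest in Combo. In the Adgre4 region the Combo libraries held 36 and 35 fragments, and the other 10 libraries had no called peak. In the Cstdc3 region LSD1i replicate 1 held 25 fragments, CER replicate 1 held 26, and the Combo libraries 76 and 63. Pileups are fragment counts that were not scaled for depth, and the background floor ranged from 2.44 fragments in Day0 replicate 2 to 4.55 in Day0 replicate 1.

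The gains that chose the unlisted regions were modest and are given as a description. In the authors' deposited table their median log2 fold was 0.86, with quartiles of 0.70 and 1.12 and a range of 0.47 to 5.65. A log2 fold of 1 or more was listed for 1438 of them (35.6%) in the authors' deposited table and one of 2 or more for 118. The listed regions had a larger median, 1.20, in the authors' deposited table, with 67.2% at 1 or more. The median FDR in the authors' deposited table was 0.00484 for unlisted and 1.86e-05 for listed regions, and the limit of the table is 0.05. Median levels, in log2 of normalised reads, went from 7.43 in Vehicle to 8.31 in Combo in the authors' deposited table. The unlisted regions were 839 bases wide at the median, from 246 to 3540.

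The boundary that the selection draws is sharp in position. Only 11 unlisted regions lay within 500 bp of an LSD1i row, the closest at 122 bp, and the median distance was 22558 bp. On the other side, the smallest overlap among the gained rows left out was 219 bp. Among those left out, 2724 overlapped a row that is higher in LSD1i and 50 overlapped only rows that are lower. The authors' deposited table for LSD1i holds 21247 rows, of which 3518 are higher and 17729 lower.

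The 2 deposited tables are not on the same scale when set beside the summit signal of the same libraries. At 1920 higher rows of the authors' deposited table for LSD1i, the listed log2 fold was lower than the signal difference by a median of 0.23 (median of fold minus signal, -0.23), and at 16298 lower rows the median was -0.24. For the Combo table the same quantity was positive: 0.16 over 4174 higher and 0.11 over 701 lower rows of the authors' deposited table. At the median, a given gain in signal was therefore listed as a smaller fold in the LSD1i table than in the Combo table. Since a region counts as unlisted when it has no row in the first and a positive row in the second, this offset lies along the selection, and how many regions it placed on either side was not tested.

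Many unlisted regions were open in every library. Of the 4039 regions, 1908 (47.2%) held a called peak in all 12 libraries, and of all 73173 regions 45.6% did. The 2 shares have unlike bases. All regions include those with a peak in 1 library, whereas every row of the Combo table overlaps a peak in at least 2 of its 4 libraries. Peaks were found in the Combo libraries alone at 282 (6.98%) and in Combo and LSD1i libraries alone at 365 (9.04%). A further 104 (2.57%) had no Vehicle or LSD1i peak but one at Day0 or under a metabolic drug, and the other 1380 (34.2%) were mixtures. Shares of all regions with these last patterns are not given here. The selection used the Combo, LSD1i and Vehicle libraries, so the counts only describe the set. In bulk chromatin, a site open in more of the cells and one opened further in each cell cannot be told apart. These groups differed in level: the median Vehicle level in the authors' deposited table was 8.49 for regions called in all libraries and 5.15 for those called in Combo alone. Median log2 folds in the authors' deposited table were 0.73 and 1.41, and median widths 1061 and 440 bases.

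By library, the share of unlisted regions with a called peak was 69.9% and 61.6% at Day0, 67.9% and 69.4% in Vehicle, 74.2% and 85.8% in LSD1i, 59.2% and 67.2% in 6MP, and 73.5% and 61.4% in CER. In Combo it was 99.9% in both libraries, which the selection fixes. Group means were 65.8% ± 5.92 (SD, n = 2) for Day0, 63.2% ± 5.69 for 6MP and 67.4% ± 8.56 for CER, the 3 groups that took no part in the selection. Over all 73173 regions those means were 65.6%, 59.4% and 62.6%. By library, the shares over all regions were 71.6% and 59.6% at Day0, 57.1% and 61.7% in 6MP, and 68.2% and 56.9% in CER. The unlisted share was thus higher in both 6MP and both CER libraries. It was lower in Day0 replicate 1 and higher in Day0 replicate 2. All regions again include those with a peak in 1 library. Differences between the groups lay within the spread of their replicates. The LSD1i mean of 80% ± 8.18 stood above the 71.6% of all regions, and its 2 replicates lay about as far apart as those of CER.

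**Figure D1:**
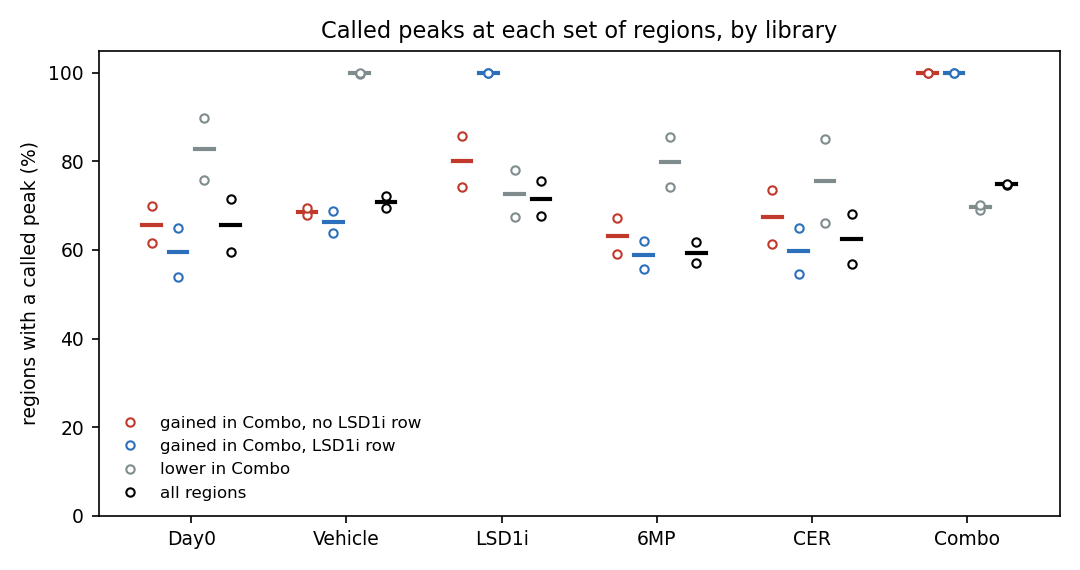
Share of regions (%, vertical axis) that overlap a called peak in each library, by group, for unlisted regions (red), listed regions (blue), regions lower in Combo (grey) and all regions (black). Circles are libraries and bars are means of 2. The unlisted regions reach 74.2% and 85.8% in LSD1i, between their Vehicle (67.9% and 69.4%) and Combo (99.9%) shares. They lie above all regions in both 6MP and both CER libraries, and on either side of them at Day0.

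Part of the set lay at sites of a kind that the LSD1i table does not hold. Every row of the LSD1i table overlaps a called peak in at least 2 of its 4 Vehicle and LSD1i libraries, whereas 913 unlisted regions (22.6%) had a peak in fewer than 2 of them. These 913 hold the largest gains: 99 of the 100 regions with the highest fold and 117 of the 118 with a log2 fold of 2 or more in the authors' deposited table. Their median log2 fold was 1.28 in the authors' deposited table, against 0.79 for the other 3126. Of the 913, 386 had no Vehicle or LSD1i peak, and 467 had none in Vehicle and one in a single LSD1i library. The other 60 had a peak in 1 Vehicle library and none in LSD1i, with a median log2 fold of 0.89 in the authors' deposited table. In the Combo comparison the regions with no Vehicle peak were called only in Combo, where they are high. Large folds over Vehicle are thus partly built into the selection and are a description. Of the 1023 regions with no Vehicle peak, LSD1i replicate 2 alone had a peak at 394 and replicate 1 alone at 73. An LSD1i peak in at least 1 library was present at 3576 (88.5%) of all unlisted regions and in both at 2887 (71.5%). By single library, LSD1i peaks were present at 67.7% and 75.5% of all regions. Absence from the LSD1i table and absence of a signal under the inhibitor are therefore different statements for this set.

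Where summits could be measured in all 6 Vehicle, LSD1i and Combo libraries, the inhibitor alone gave an intermediate level. This held for 2431 unlisted regions, and the summit signal is log2 of the pileup over the library's background, centred on regions open in all libraries. The median signal difference between Combo and Vehicle was 0.61, between LSD1i and Vehicle 0.38 (quartiles 0.20 and 0.55), and between Combo and LSD1i 0.23 (0.06 and 0.44). Over all 40284 regions measured in these libraries the medians were -0.09, -0.04 and -0.04. Scaled by depth alone, without centring, LSD1i minus Vehicle was 0.23 and Combo minus LSD1i 0.61, so which of the 2 steps is the larger depends on the scaling. The LSD1i mean lay between the Vehicle and Combo means at 1834 unlisted regions (75.4%, against 13.2% of all regions), at or above Combo at 400 (16.5%) and at or below Vehicle at 197 (8.1%). The selection asked for Combo above Vehicle and for no LSD1i row, which limits where LSD1i can lie, so these values are a description. Of the 2774 listed regions, 2724 overlap a row that is higher in LSD1i. Listed regions gave other values. Their median difference was 0.89 for Combo and 0.92 for LSD1i against Vehicle, so that Combo minus LSD1i was -0.02, and LSD1i lay between at 43.6% of 1652.

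Both Combo libraries exceeded both LSD1i libraries at 1396 unlisted regions (57.4%), and the share over all regions was 18.6%. Both LSD1i libraries exceeded both Vehicle libraries at 1682 (69.2%), with 25.5% over all regions. The selection used all 3 groups, so these shares describe the set and support nothing further. Over the 1906 regions with a usable signal in all 12 libraries, the median was 3.95 and 4.05 at Day0, 3.91 and 3.98 in Vehicle, 4.25 and 4.32 in LSD1i, 4.17 and 4.13 in 6MP, 4.10 and 4.15 in CER, and 4.55 and 4.57 in Combo. No library outside Combo reached the Combo values, and both LSD1i libraries stood above every other library outside Combo.

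Library names carry a suffix in some cases, and its meaning is not given in the sources used here. Vehicle replicate 1 and Combo replicate 2 share the suffix R, and Vehicle replicate 2, Combo replicate 1 and both LSD1i libraries have none. Within the suffix the Combo minus Vehicle median was 0.64, and without it 0.57. Among libraries without a suffix, LSD1i replicates 1 and 2 lay 0.30 and 0.37 above Vehicle, and Combo lay 0.28 and 0.21 above them.

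**Figure D2:**
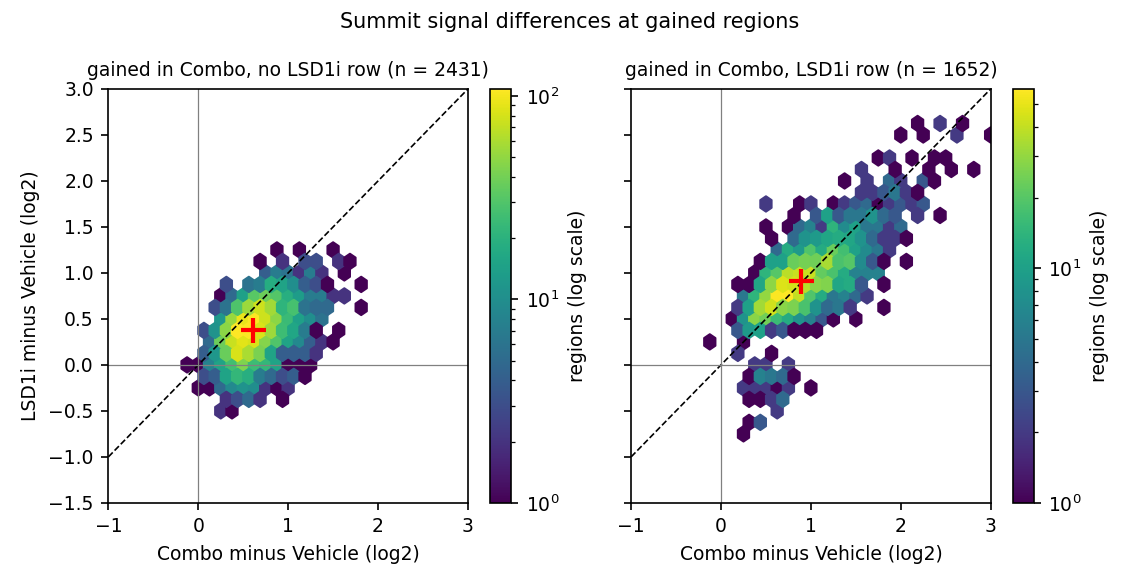
Summit signal difference of LSD1i from Vehicle (vertical, log2) against that of Combo from Vehicle (horizontal, log2) for 2431 unlisted (left) and 1652 listed (right) regions; colour gives the number of regions per cell on a log scale, the dashed line marks equal differences and the red cross the medians. The cross lies at 0.61 and 0.38 for unlisted regions, below the line, and at 0.89 and 0.92 for listed ones, on it. The selection used all 3 groups.

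Most of the regions that lead the set had no called peak outside Combo and LSD1i. The lowest FDR, 2.92e-34 with a log2 fold of 3.14 in the authors' deposited table, belonged to a region of 344 bases assigned to Gm11110 (chr17:57108781-57109124, mm10) near Tnfsf9, the gene of a costimulatory ligand of the tumour necrosis factor family. Its summit held 144 and 160 fragments in the Combo libraries, and no other library had a peak. The local background there was 10.4 and 13.8 times the library floor, and the Vehicle level was 6.17 in the authors' deposited table. The highest log2 fold in the authors' deposited table, 5.65, was at exon 6 of 9 of Ptgfrn (chr3:101056536-101057016), which encodes a tetraspanin-associated membrane protein. There LSD1i replicate 2 held 43 fragments, the Combo libraries 70 and 63, and the other 9 had no peak.

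An exon of Dscam, a cell adhesion gene that the table gives as ENSMUSG00000050272 (chr16:96650046-96650444, exon 23 of 33), had 65 fragments in both Combo libraries and a log2 fold of 4.15 in the authors' deposited table. Babam2, a subunit gene of a deubiquitinating complex, had 48 and 46 in an intron (chr5:31792606-31793552). Both were called in Combo alone. Regions upstream of Id2, an inhibitor of E-protein transcription factors (chr12:25104454-25105056), and of the sphingosine kinase gene Sphk1 (chr11:116518399-116518914) followed the Ptgfrn pattern. LSD1i replicate 2 held 71 fragments at Id2 and 42 at Sphk1, the Combo libraries 91 and 76 at Id2 and 54 and 63 at Sphk1, and LSD1i replicate 1 had no peak at either. In these regions the 2 LSD1i replicates disagreed. Log2 folds were 2.80 for Id2 and 3.0 for Sphk1 in the authors' deposited table.

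A region assigned to Gm49408 (chr15:67780694-67781413) was the exception among the 10 with the lowest FDR, since it was open in all 12 libraries. Its pileup was 24 to 53 fragments in the 10 libraries outside Combo and 118 and 122 in Combo. The signal in Combo exceeded that in LSD1i by 1.09 ± 0.25 (standard error of the limma fit, 2 libraries a group) and LSD1i exceeded Vehicle by 0.67 ± 0.25.

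**Figure D3:**
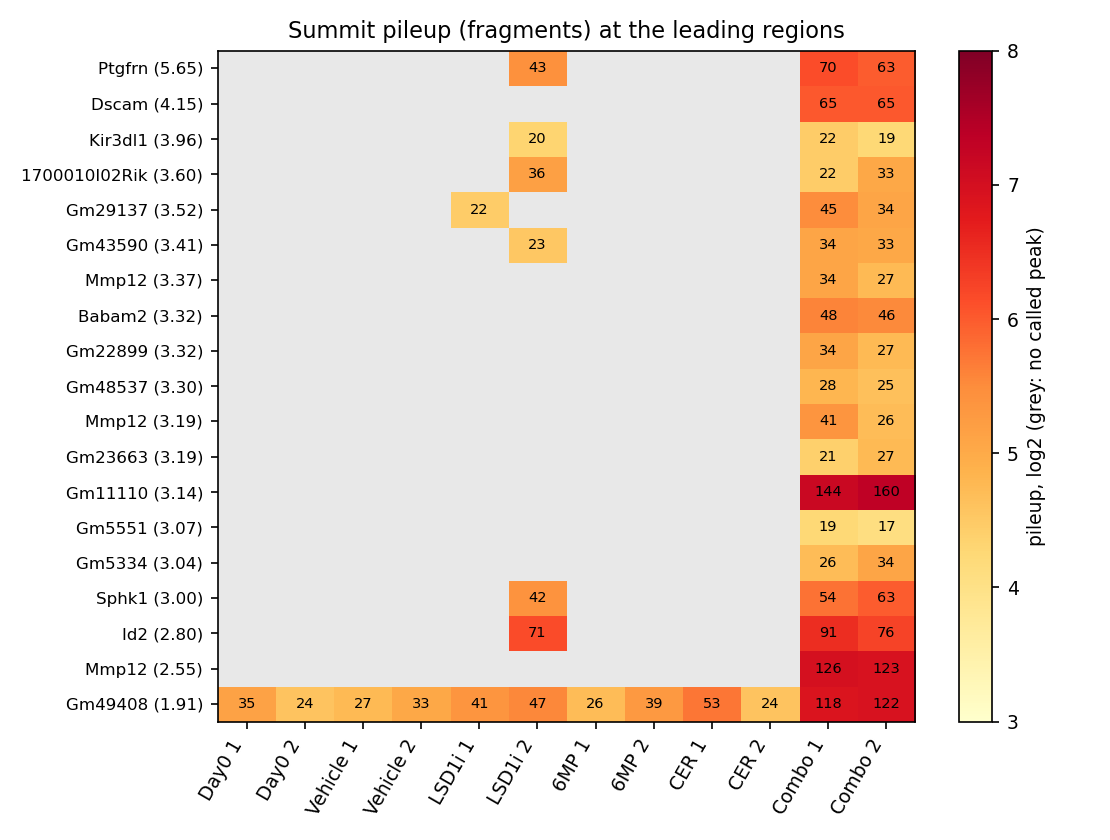
Summit pileup in fragments (numbers and colour, the colour on a log2 scale) in each of the 12 libraries (columns) for the 19 regions with the highest fold, the lowest FDR or peaks in Combo alone (rows; the log2 fold of the authors' deposited table is in brackets). Grey means no called peak: 18 of the rows are grey outside LSD1i and Combo, and the Gm49408 row is filled throughout.

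Mmp12, which encodes a metalloelastase secreted by macrophages, had 5 unlisted regions within 30.1 kb and 3 listed neighbours among them. Upstream of the gene, chr9:7331845-7332142 held 126 and 123 fragments in Combo alone, with a log2 fold of 2.55 in the authors' deposited table. The local background there was 13.6 and 13.4 times the library floor, and the Vehicle level 6.27 in the authors' deposited table. Within and beyond it, chr9:7352302-7352922 held 41 and 26, chr9:7359225-7360120 held 34 and 27, and chr9:7360705-7361978 held 30 and 31, again in Combo alone. The region at the promoter, chr9:7342901-7343637, had weak peaks in several libraries, namely 17 fragments in Day0 replicate 1, 15 and 17 in Vehicle, 24 in CER replicate 1 and 42 in Combo replicate 2. Among the listed neighbours, chr9:7346827-7347754 had 34 and 51 fragments in LSD1i and 92 and 93 in Combo. The listed region chr9:7335902-7337588 was open in all 12 libraries at 75 to 610 fragments. The log2 folds of the 3 listed neighbours were 1.39, 2.29 and 3.31 for Combo and 0.59, 1.73 and 2.16 for LSD1i in the authors' deposited tables. Listed elements thus lay between unlisted ones, and the 3 elements farthest downstream were unlisted.

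No called peak is not the same as no reads. The peak caller sets a summit against its local background, and some regions called in Combo alone lay on a high one. At Slc11a1, a metal transporter gene of phagosomes (chr1:74373399-74373719), Combo held 186 and 238 fragments, and the local background was 14.5 and 20.2 times the library floor. The Vehicle level there was 8.82 in the authors' deposited table. At Cd34, the progenitor surface marker (chr1:194946467-194946742), Combo held 159 and 200 fragments over a background of 12.6 and 15.8 times the floor. The Cd34 levels in the authors' deposited table were 8.78 in Vehicle and 9.37 in Combo, a log2 fold of 0.59 at an FDR of 0.0413. Of the 282 regions called in Combo alone, 45 had a Vehicle level at or above the lowest one seen where both Vehicle libraries had a peak (5.88 in the authors' deposited table), and 3 reached the median of such regions. The leading Gm11110 and upstream Mmp12 regions are among the 45. The typical region of this kind was quiet, with a median local background of 1.02 and 1 times the floor in the Combo libraries. The Vehicle level in the authors' deposited table was 3.89 at Dscam and 4.35 at Babam2, far below that at Cd34.

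Genes with several unlisted regions were few. The regions were assigned to 3149 genes, 75 had no symbol, 2557 genes had a single region and 17 had 5 or more. Sgms1, which encodes a sphingomyelin synthase, led with 10 regions over 243 kb, 7 of them open in all 12 libraries, with log2 folds of 0.61 to 1.28 in the authors' deposited table. They did not respond alike to the inhibitor. In intron 2 (chr19:32298182-32298710) the signal was 3.77 and 3.11 in Vehicle, 3.35 and 3.35 in LSD1i, 4.07 and 4.24 in 6MP, 4.32 and 4.40 in CER, and 4.39 and 4.76 in Combo. Here both metabolic drug groups lay near Combo, and LSD1i lay within the Vehicle range. In intron 1, at chr19:32379356-32379918, the signal was 4.72 and 4.96 in Vehicle, 5.25 and 5.30 in LSD1i, and 5.32 and 5.33 in Combo, so LSD1i was near Combo.

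Gda, the guanine deaminase gene of purine breakdown, had 6 unlisted regions over 93.2 kb and no listed one. In its intron 1 (chr19:21440736-21442215) the signal was 4.83 and 5.32 at Day0, 4.69 and 4.39 in Vehicle, 4.51 and 4.60 in LSD1i, 4.49 and 5.03 in 6MP, 5.44 and 5.52 in CER, and 5.26 and 5.13 in Combo. LSD1i and Vehicle overlapped, and the CER libraries were the highest. Itprid2, Trps1 and Vav3 had 6 unlisted regions each, and Myof and Samsn1 had 5 each.

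The genes of the lists used here were met more often than protein-coding genes at large. An unlisted region was assigned to 52 of 294 list genes (17.7%) and to 7.45% of 21900 RefSeq protein-coding genes. Listed regions were assigned to 39 (13.3%) and 5.07%. Regions lower in Combo were assigned to 20 of the 294 and to 669 of the 21900, so the excess was not particular to gained regions. The lists and the regions were both taken up with earlier results known, and long genes with many open sites gather more assignments, so these shares are descriptions. Monocyte and macrophage genes had the most, with 9 of 20 (45%), while 2 of the 20 had a listed region. The 9 were Adgre1, Ccr2, Cd14, Csf1r, Cx3cr1, Fcgr4, Ly6c2, Lyz2 and Trem2, with a median log2 fold of 0.74 over 11 regions in the authors' deposited table.

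At Cd14, the coreceptor for bacterial lipopolysaccharide, the region held 52 and 80 fragments in LSD1i and 127 and 126 in Combo, and no peak elsewhere. The Vehicle level there was 7.37 in the authors' deposited table, so Vehicle reads were present without a called peak. At the Ly6c2 promoter, a monocyte surface marker, Vehicle replicate 2 held 33 fragments, LSD1i 37 and 44, and Combo 70 and 54. At the Csf1r promoter, the receptor for macrophage colony-stimulating factor, peaks were present in 7 libraries. They held 63 and 49 fragments at Day0, 76 in LSD1i replicate 2, 51 in 6MP replicate 2, 85 in CER replicate 1, and 96 and 112 in Combo. Vehicle had no called peak, at a level of 7.99 in the authors' deposited table, against 8.7 in Combo. At the Fcgr4 promoter the signal was 4.15 and 4.35 in Vehicle, 4.25 and 4.20 in LSD1i, 4.49 and 4.65 in 6MP, 4.62 and 4.73 in CER, and 4.77 and 4.60 in Combo. The monocyte genes therefore held both forms, with called peaks in LSD1i but not in Vehicle at Cd14, and LSD1i signal level with Vehicle at Fcgr4.

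Neutrophil genes were represented by 6 of 22: Camp, Csf3r, Fpr2, Mmp8, Mpo and Padi4. At the Camp promoter (chr9:109849304-109850170) the signal was 3.82 and 3.38 at Day0, 3.45 and 3.08 in Vehicle, 3.42 and 3.35 in LSD1i, 3.52 and 4.22 in 6MP, 4.15 and 4.47 in CER, and 4.27 and 4.22 in Combo. LSD1i exceeded Vehicle by 0.12 ± 0.25 and Combo exceeded LSD1i by 0.86 ± 0.24 (standard errors). The CER libraries lay at the Combo level, and CER minus Day0 was 0.71 ± 0.24, which did not pass (adjusted p = 0.24, limma). The element upstream of Mpo, the myeloperoxidase gene, had a similar order with smaller steps: 4.50 and 4.13 in Vehicle, 4.47 and 4.44 in LSD1i, 4.87 and 4.98 in CER, and 4.84 and 4.97 in Combo. Dendritic cell genes were Cd83, Cd86 and Zbtb46, 3 of 15. Intron 1 of Cd86, a costimulatory ligand, held 34 and 27 fragments in Combo and no peak elsewhere.

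Among 30 myeloid transcription factor genes, 5 had an unlisted region: Gfi1, Gfi1b, Id2, Irf4 and Klf2. A region lower in Combo was assigned to 6 of the 30. The Gfi1b region (chr2:28618049-28619371) had signals of 5.28 and 4.88 in Vehicle, 5.57 and 5.71 in LSD1i, and 6.01 and 6.17 in Combo, and no 2 of these groups overlapped. The Gfi1 promoter had a Vehicle level of 13.22 in the authors' deposited table, the highest among unlisted regions with a peak in both Vehicle libraries. Its signal difference between Combo and Vehicle was 0.06 ± 0.18 (standard error), beside a log2 fold of 0.48 in the authors' deposited table. None of the 10 genes of the LSD1 complex had an unlisted or listed region, and 2 had a region lower in Combo. Progenitor genes were Bcl2, Cd34, Erg and Etv6, 4 of 20.

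Of 31 fatty acid and sterol genes, 6 had an unlisted region (Abca1, Acsl1, Elovl6, Lpin1, Mylip and Pparg), and 2 of 31 had a listed one. Near the start of Acsl1, a long-chain acyl-CoA synthetase gene (chr8:46533674-46534482), the signal was 4.18 and 4.19 at Day0, 3.75 and 3.60 in Vehicle, 3.84 and 3.63 in LSD1i, 4.30 and 4.27 in 6MP, 4.70 and 4.79 in CER, and 4.33 and 4.49 in Combo. CER was highest, and LSD1i overlapped Vehicle. Of the 25 purine and one-carbon genes on the list, which leaves out Gda, 1 had an unlisted region, namely Nt5e, which encodes a nucleotidase of the cell surface. At its intron Combo held 131 and 134 fragments and the other libraries 37 to 78. Stress response genes were 2 of 18, Ern1 with 89 and 93 fragments in Combo alone and Slc7a11. Btg2 was the p53 target met (1 of 17) and E2f3 the cell cycle gene (1 of 20). Cytokine receptor and signalling genes came to 8 of 27, mast cell genes to 4 of 10 (Cpa3, Hdc, Mitf and Prg2), lymphoid genes to 2 of 17, and megakaryocyte and erythroid genes to 0 of 12.

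Differences among Day0, 6MP and CER come from libraries that the selection did not use. At unlisted regions called in all 4 libraries of a contrast, signal under each metabolic drug was slightly above Day0, more often than at regions at large. The median 6MP minus Day0 difference was 0.12 over 2035 unlisted regions and 0.00 over all 35602 tested, and 66% against 50.8% were above 0. For CER minus Day0 it was 0.11 over 2137 and 0.03 over all 36795, with 62.3% against 54.4% above 0. By contrast, CER minus 6MP had a median of -0.02 over 2072 unlisted regions and 0.03 over all 35304. At listed regions the medians were 0.20 for 6MP minus Day0 over 1235, and 0.06 for CER minus Day0 over 1265. For CER minus 6MP the listed median was -0.14 over 1251. The rise of 6MP over Day0 was thus not particular to unlisted regions. Drug and 2 days of culture differ together between either drug group and Day0. Both Day0 libraries also share a name suffix that no other library has, so drug, time and suffix cannot be told apart.

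The differences between 6MP and Day0 were present at every level of openness. In the lowest, middle and highest of 3 equal classes of unlisted regions by mean signal they were 0.16, 0.14 and 0.08, against 0.02, 0.01 and -0.01 for all regions within the same bounds. For CER minus Day0 they were 0.08, 0.12 and 0.12, against -0.08, -0.04 and 0.07.

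At an unadjusted p of 0.05 (limma), 369 (18.1%) unlisted regions passed in 6MP against Day0 and 384 (18%) in CER against Day0, in either direction. Among all regions 13.3% and 10.6% did. The spread behind these p-values came from all 12 libraries, among them the Vehicle, LSD1i and Combo libraries that the selection used. The p-values and the shares passing are therefore not independent of the selection. Single regions passed the limma test at an adjusted p of 0.05 in small numbers. In 6MP against Day0, 26 unlisted regions were higher in 6MP (1.28%), where 0.593% of all regions were, and 1 was lower, where 0.135% were. In CER against Day0, 8 were higher in CER and 0 lower, with 0.0544% and 0.0625% over all regions. In CER against 6MP, 4 were higher in CER and 10 higher in 6MP, with 0.0708% and 0.555% over all regions. All of these counts fell to 0 when signal was scaled by depth alone, and they moved with single libraries: without Day0 replicate 2 the 27 calls of 6MP against Day0 became 1, without 6MP replicate 1 they became 161, without 6MP replicate 2 they became 6 and without Day0 replicate 1 they became 9. The 8 of CER against Day0 became 0 without Day0 replicate 2 or CER replicate 2, 2 without CER replicate 1 and 4 without Day0 replicate 1. The 14 of CER against 6MP became 0 without CER replicate 1, 9 without CER replicate 2, 34 without 6MP replicate 1 and 104 without 6MP replicate 2, and 85 with the name suffix as a block.

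The region with the lowest p for 6MP lay in an exon of Gm14120 near Cd93, a receptor gene of early progenitors and monocytes (chr2:148477892-148478822). Its signal was 3.34 and 3.19 at Day0, 3.93 and 4.17 in Vehicle, 4.47 and 4.56 in LSD1i, 4.47 and 4.58 in 6MP, 4.03 and 4.45 in CER, and 4.65 and 4.85 in Combo. It was higher in 6MP than at Day0 by 1.26 ± 0.20 (standard error, adjusted p = 0.00287, limma) and in CER by 0.97 ± 0.20 (adjusted p = 0.0325, limma). All day 2 libraries lay above both Day0 libraries, Vehicle included. The promoter region of Slc2a9, a urate transporter gene (chr5:38493742-38494446), went the same way: 3.91 and 3.69 at Day0, 4.74 and 4.81 in Vehicle, 5.03 and 4.58 in 6MP, and 4.68 and 4.64 in CER. There 6MP exceeded Day0 by 1.01 ± 0.17 (adjusted p = 0.00412, limma), and the Vehicle values lay within the range of the drug groups.

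Smc5 intron 8, in a gene of chromosome maintenance, was higher by 1.25 ± 0.23 in 6MP (adjusted p = 0.00776, limma) and 1.32 ± 0.23 in CER (adjusted p = 0.0117, limma). Without Day0 replicate 2 these differences were 0.78 (adjusted p = 0.217, limma) and 0.86 (adjusted p = 0.266, limma), and the calls were lost. Without that library the 6MP difference remained past the threshold at Gm14120 (1.19, adjusted p = 0.0491, limma) but not at Slc2a9 (0.90, adjusted p = 0.0864, limma), and the CER differences at Gm14120 and Trub2 did not pass (adjusted p = 0.264 and 0.254, limma). The region at the 3′ end of Irf4, a transcription factor of dendritic and lymphoid cells, was higher in 6MP by 1.22 ± 0.27 (adjusted p = 0.0251, limma), and CER minus Day0 there was 0.88 ± 0.26 (adjusted p = 0.154, limma). Irf4 signal was 2.61 and 2.05 at Day0, 3.19 and 3.11 in Vehicle, 3.71 and 3.39 in 6MP, 3.12 and 3.30 in CER, 3.92 and 3.85 in LSD1i, and 3.77 and 4.25 in Combo. A region assigned to Lpin1, a phosphatidate phosphatase gene of lipid synthesis, was higher in 6MP by 0.66 ± 0.16 (adjusted p = 0.0384, limma). The Lpin1 region differed from the others in that LSD1i, at 5.20 and 5.22, overlapped Vehicle, at 5.19 and 5.39, while 6MP reached 5.40 and 5.86 and Combo 5.67 and 6.03. In CER against Day0, intron 6 of the pseudouridine synthase gene Trub2 was higher by 0.77 ± 0.14 (adjusted p = 0.0325, limma), with 5.88 and 5.75 in CER and 5.01 and 4.92 in Vehicle. The region that was lower in 6MP than at Day0 lay upstream of Bbs5, a cilium gene, at -0.90 ± 0.22 (adjusted p = 0.0472, limma).

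**Figure D4:**
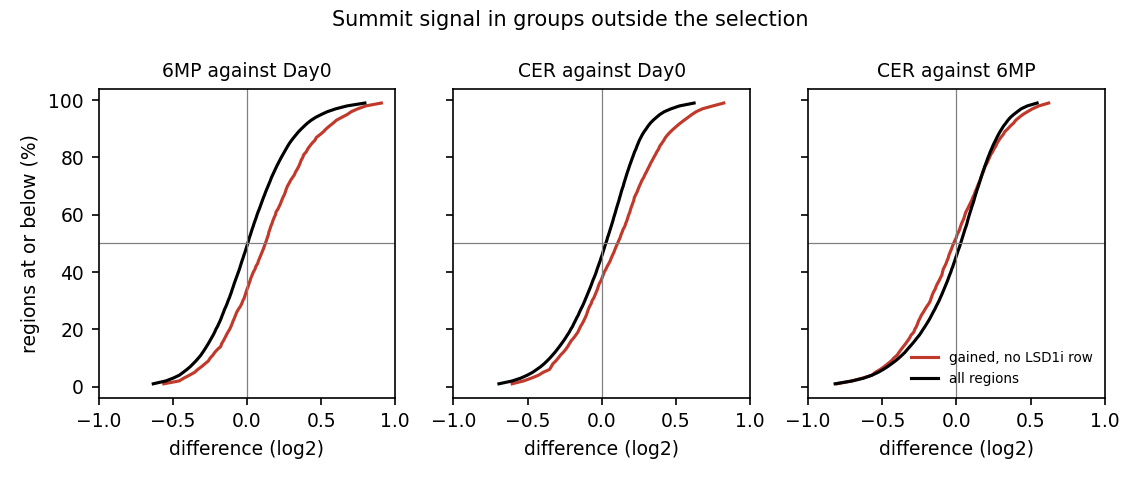
Cumulative share of regions (%, vertical) by difference in summit signal (log2, horizontal) for 6MP against Day0, CER against Day0 and CER against 6MP; red is unlisted regions, black all regions tested. The red curves lie to the right of the black ones in the first 2 panels (medians 0.12 against 0.00 and 0.11 against 0.03) and close to the black one in the third (-0.02 against 0.03).

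The position of LSD1i between Vehicle and Combo went with differences in the other groups. This split was made after the values were seen and is a description. At the 197 unlisted regions where LSD1i lay at or below Vehicle, the median CER minus Day0 difference was 0.16, with 71.8% of 177 above 0, and CER minus 6MP was 0.11. At the 400 where LSD1i lay at or above Combo, CER minus Day0 was 0.02 over 312, CER minus 6MP was -0.16, and CER was above 6MP at 31.6%. The 6MP minus Day0 difference was 0.10 in the first group and 0.14 in the second. At the 1834 regions in between, CER minus Day0 was 0.12, with 64% of 1555 above 0. There CER minus 6MP was -0.01 and 6MP minus Day0 0.12. The first group includes Fcgr4, Il17ra and the intron of Sgms1 named above, the second Dusp1, a phosphatase gene of stress signalling, where the signal was 5.68 and 6.00 in Vehicle, 6.62 and 6.31 in LSD1i, and 6.48 and 6.33 in Combo.

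Unlisted and listed regions had near-equal shares by position. In the annotation of the authors' deposited table, 851 (21.1%) lay within 3 kb of a start site, 1426 (35.3%) in introns and 1477 (36.6%) between genes, against 21.3%, 34.7% and 38.2% of listed regions. Regions lower in Combo were nearer to genes, with 30.1% within 3 kb and 23.1% between genes in the authors' deposited table. The median distance to a start site was 10.8 kb for unlisted and 11.1 kb for listed regions. Unlisted regions were mostly single elements: 741 lay within 10 kb of another, and the longest run held 5.

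The other deposited comparisons, all of which share the Vehicle libraries, listed very different shares of the genome's open regions. In the authors' deposited table for CER, 8 unlisted regions (0.198%) were listed, 2 higher and 6 lower than Vehicle, where the table holds 0.36% of the regions tested by the authors. In the authors' deposited table for Day0, 22 (0.545%) were listed, where the table holds 1.87%. In the authors' deposited table for 6MP, 150 (3.71%) were listed, where the table holds 41.9%, and 149 of the 150 were lower, with a median log2 fold of -0.56. The summit signal did not follow this direction. Over 137 of the 150 regions the median signal difference between 6MP and Vehicle was 0.18, and the sign matched the authors' deposited table at 18. Library 6MP replicate 1 has the weakest enrichment of the series (16.9 times background), and its part in this was not tested. For the Day0 comparison the signs matched at 20 of 20.

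Promoter windows of 300 bases, from 250 before to 50 after the start site, gave a view of sequence. In all, 159 windows of 142 genes lay wholly inside unlisted regions and 71 inside listed ones, beside 32851 windows in the RefSeq table. On either strand, the C/EBP motif TTGCNNAA was found in 22% of windows in unlisted regions, 14.1% in listed regions and 10.8% of all. The PU.1 motif GAGGAAGT was found in 11.9%, 4.23% and 3.2%, and the AP-1 motif TGANTCA in 17%, 9.86% and 7.81%. C/EBP factors and PU.1 drive myeloid genes, and AP-1 factors respond to signalling. Between unlisted regions and all windows the order was the other way for motifs of broadly active promoters, with NFY (CCAAT) in 25.8%, 39.4% and 37.4% and SP/KLF (GGGCGG) in 20.8%, 35.2% and 35.7%. The core GFI1 letters AAATCNC were found in 10.7% of windows in unlisted, 19.7% in listed regions and 11.7% of all, and the HOX-PBX letters TGATTNAT in 5.03%, 11.3% and 3.22%. The 23 windows inside regions lower in Combo had shares much like the unlisted ones for most of these motifs: 21.7% for C/EBP, 17.4% for AP-1, 21.7% for NFY and 13% for SP/KLF, with 0% for PU.1. The C/EBP, AP-1, NFY and SP/KLF shares were thus not particular to regions gained in Combo. The windows cover 137 of the 4039 unlisted regions, all at promoters, so they say nothing of the sequence of the others.

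**Figure D5:**
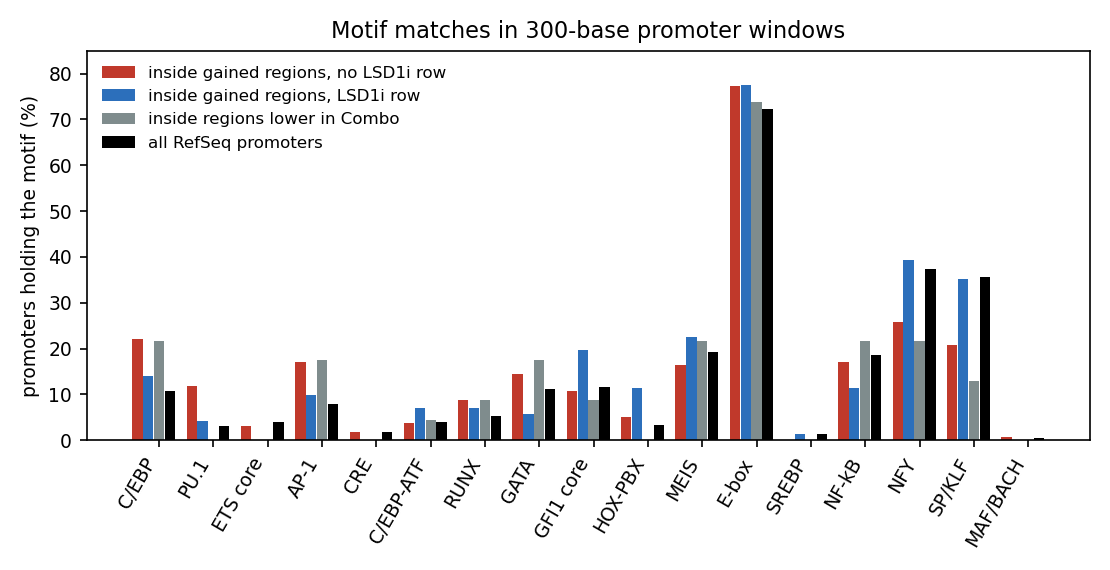
Share of 300-base RefSeq promoter windows (%, vertical) that hold each motif on either strand (horizontal) for windows inside unlisted regions (red, 159), inside listed regions (blue, 71), inside regions lower in Combo (grey, 23) and all windows (black, 32851). C/EBP and AP-1 are high in red (22% and 17%) and in grey (21.7% and 17.4%), NFY and SP/KLF are low in both, and PU.1 is 11.9% in red and 0% in grey.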

How the data were processed

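ATAC-seq libraries of 6 groups with 2 replicates each were analysed from the deposited peak lists and comparison tables. The submitters' processing notes name the mm10 build, MACS2 2.1.2 and DiffBind, and further Bowtie2, Trimmomatic 0.38, Picard 2.18.26 and SAMtools 1.9. Settings are not given in the sources used here. The authors' peak lists hold a score in whole numbers, the ratio (fold) of each summit to its local background, and the -log10 of its p-value and q-value. The authors' deposited tables hold levels and fold changes in log2 of normalised reads, with a p-value and FDR for each row, and hold no row with an FDR above 0.05. The scaling of those log2 values is not given in the sources used here. Fragment pileup and background at each summit were solved from the deposited ratio and -log10 p-value, and the pileup came out whole within 0.001 at every summit of all 12 libraries.

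The smallest background of a library, 2.44 to 4.55 fragments, was taken as its depth. Log2 of pileup over depth, the summit signal, was centred library by library, using the median at 33358 regions called in all 12 libraries, and the mean of these medians, 4.92, was added back. A weak summit of 10 to 14 fragments carries a large counting error. Regions were matched to peaks and tables by an overlap of 1 bp. With 2 libraries against 2, an exact two-sided permutation test cannot give a p below 0.333. Regions called in all 4 libraries of a contrast were therefore tested with limma 3.58.1 (R 4.3.3), fitted on all 12 libraries with an intensity trend and adjusted by Benjamini-Hochberg over all regions tested, at 0.05. The steps were tried on simulated data, for limma with equal noise in all libraries and no missing summits. The libraries here differ in enrichment and lack some summits, so this does not vouch for single calls. P-values measure the spread between these replicates, whose source is not given in the sources used here. Contrasts among Vehicle, LSD1i and Combo were not tested, because the selection used them. Tables and figures were made with Python 3.11.15, numpy 2.4.6, pandas 2.3.3 and scipy 1.17.1.

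Named regions were the 10 with the highest fold, the 10 with the lowest FDR, those of genes on 15 lists, up to 10 called in Combo alone, and up to 10 by p for each contrast among Day0, 6MP and CER. Genes with several regions, the promoters shown and the regions on a high local background were added after their values were seen. The regions, lists and tests were chosen with earlier results of these data known. Alternatives covered the overlap, the fold and FDR limits, the peak threshold, the scaling, the replicate block and leaving out each replicate.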

Additional observations from a re-analysis of the deposited data

Results flagged for a closer look

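CER and 6MP, both sampled on day 2, can be compared directly, and this contrast equals the difference between their changes from Day0. It passed the limma test (adjusted p under 0.05) at 14 of 2072 unlisted regions (0.676%), near the 0.626% of all regions, and all 14 calls were lost without CER replicate 1. Signal was higher in CER at Gm15056 (1.08 ± 0.22, standard error, 2 libraries a group), at Gda, the guanine deaminase gene (0.72 ± 0.18), at Pfpl (0.64 ± 0.16) and at Gm48076 (0.60 ± 0.15). At Pfpl the signal was 5.44 and 5.10 in CER, 4.64 and 4.61 in 6MP, and 5.45 and 5.49 in Combo. Signal was higher in 6MP, and the CER minus 6MP difference negative, at a region between genes with no gene symbol (chr4:89043706-89044713, -1.26 ± 0.26). The same held at Map3k13, a stress kinase gene (-1.16 ± 0.22), B430305J03Rik (-1.13 ± 0.21), Nceh1, a cholesterol ester hydrolase gene (-1.01 ± 0.21), and Slc37a3 (-0.98 ± 0.24). Further such regions were Gm44101 within Itpr1 (-0.95 ± 0.23), Gm38376 near Ncoa2 (-0.90 ± 0.19), Mir107 within Pank1 (-0.77 ± 0.17), Adck1 (-0.76 ± 0.18) and Gm42450 (-0.71 ± 0.16).

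At Map3k13 the signal was 4.20 and 4.17 in 6MP, 3.08 and 2.97 in CER, 3.45 and 3.25 in Vehicle, 4.06 and 3.99 in LSD1i, and 4.35 and 4.41 in Combo, so 6MP, LSD1i and Combo lay above Vehicle and CER below it. Adjusted p-values of the 14 ran from 0.0166 to 0.0495 (limma). None of these 14 calls was kept under scaling by depth alone.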

How the results depend on the processing

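The number of regions was 4028, 4105 and 4089 under other rules of overlap, and it fell to 2468 with an FDR of 0.01 or less and to 1438 with a log2 fold of 1 or more. Requiring a peak over 50% of the region lowered the called share to 55.4% at Day0, 57.9% in Vehicle, 70% in LSD1i, 45.9% in 6MP, 55.7% in CER and 97.4% in Combo. A -log10 q of 5 or more gave 58.6% at Day0, 63.7% in Vehicle, 56.8% in 6MP and 96.7% in Combo. With a log2 fold of 1 or more, 17.5% of regions lay at promoters and 38.2% between genes.

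Scaling by depth alone left 0 unlisted regions and 0 of all regions past the limma threshold in all 3 contrasts, and it shifted the median of all regions by -0.25 in 6MP minus Day0, -0.06 in CER minus Day0 and 0.19 in CER minus 6MP. The medians of unlisted regions were then -0.13, which reversed the sign, 0.02 and 0.14. Relative to all regions the first 2 stayed positive. Under depth scaling Combo minus Vehicle was 0.83, LSD1i minus Vehicle 0.23 and Combo minus LSD1i 0.61, and LSD1i lay between at 79.8%. Centring by intensity gave 0.31 for Combo minus LSD1i and 79.9% between. The name suffix as a block, added after seeing the data, raised the calls of CER against 6MP from 14 to 85 of the unlisted and from 221 to 1094 of all regions. The cause was not tested.

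Leaving out 1 library at a time gave 1 to 161 unlisted and 11 to 3900 of all regions for 6MP against Day0, 0 to 4 and 0 to 15 for CER against Day0, and 0 to 104 and 3 to 3191 for CER against 6MP. The lone library is assumed to vary like the other groups. The share with LSD1i between ranged from 69.3% to 75.6%. Of 32 named calls, none passed under every alternative and none reversed.

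Replicate numbers are shared between groups, but they gave no common pairing. The correlation of same-numbered deviations ran from -0.34 to 0.25 over 15 pairs of groups. In Vehicle, 6MP, CER and Combo a single library each carries the name suffix R. The correlation was positive where R falls on the same number (Vehicle and CER 0.25, 6MP and Combo 0.14). It was negative where R does not (Vehicle and Combo -0.34, CER and Combo -0.20, Vehicle and 6MP -0.11, 6MP and CER -0.04). The main fit has no term for the suffix. With the replicate block, the 27, 8 and 14 calls became 34, 11 and 15 of the unlisted regions, the 259, 43 and 221 became 319, 50 and 250 of all regions, and the medians stayed at 0.12, 0.11 and -0.02. The planned motif search in windows of 200 and 400 bases around region centres was not run, because it needs a genome sequence that was not used here. Promoter windows took its place after the data were seen. Near the smallest pileups of 10 to 14 fragments, small differences were not detectable with 2 libraries a group.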
